A study of Mus musculus with 6 samples.

Results

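The 46 genes described here encode ligands, receptors, signal transducers and inhibitors of the TGF-beta, BMP and activin pathway, together with the ID genes that the pathway controls. They were chosen by name, with earlier results of these data known, and all 46 were found by symbol among the 18507 genes of the deposited table. The comparison is between interscapular brown adipose tissue of Beclin1-/- mice, called Beclin1_KO, and of wild-type mice (WT), with 3 libraries each. Beclin 1 belongs to a lipid kinase complex needed to begin autophagy, and the series title gives its deletion as adipocyte-specific. All animals were C57BL/6, ate chow and were housed at 22 °C with 12 h of light. Knockouts and WT controls alike were given tamoxifen, the drug that activates the Cre recombinase, by oral gavage at 75 mg/kg on 5 days in a row, although a treatment tag of every sample reads untreated. The promoter that drives Cre, the sex and age of the animals, the interval after tamoxifen, and whether WT animals carried Cre or a floxed allele are unstated in the labels.

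Ligands of this family are secreted dimers that bring type I and type II receptor kinases together on the cell surface. The type I kinase then phosphorylates a receptor-activated SMAD, which joins SMAD4 and enters the nucleus to control transcription. TGF-beta, activin and their relatives act mainly through SMAD2 and SMAD3, whereas BMPs act mainly through SMAD1, SMAD5 and SMAD9, with the ID genes among their best known targets. In mouse fat, BMP7 and BMP8B are known for promoting brown adipocyte formation and heat production, activin-type signals through ALK7 restrain lipolysis, and TGF-beta is known for matrix deposition.

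Sequencing gave 50536315 to 60983193 counts per Beclin1_KO library and 44269031 to 50842488 per WT library. Becn1 itself had 58.0, 53.7 and 42.7 CPM in Beclin1_KO, against 82.8, 86.4 and 89.2 CPM in WT (CPM, TMM-scaled read counts for each 1e+06 counts sequenced). Its log2 fold change, Beclin1_KO minus WT throughout, was -0.74 (SE 0.13, adjusted p = 0.00411). Becn1 was lower in every knockout library, with a gene-level count that sums deleted and retained exons and all cells of the tissue. A gene is said to have risen or fallen where its adjusted p in edgeR's quasi-likelihood test was below 0.05. By that rule 46.6% of the 15347 genes tested changed, 24.8% higher and 21.8% lower, and their median log2 fold change was 0.05. On the deposited FPKM scale (fragments per kilobase, which allows levels of different genes to be compared), 74.2% of the calls were higher, against 53.3% on counts. The median log2 fold change over genes in both fits was 0.32 higher on the FPKM scale. CPM values are used below for differences between genotypes, and FPKM values only for comparing genes with each other within a library or genotype.

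The cell types of the tissue also differed between the genotypes by marker genes. Markers of macrophages rose for 10 of 10 genes, with a summed level of 4382 to 7067 CPM in Beclin1_KO and 260.2 to 303 CPM in WT. Markers of fibroblasts and progenitors rose for 9 of 10 genes, at 7731 to 12629 CPM in Beclin1_KO against 1690 to 2410 CPM in WT. Adipocyte markers fell for 7 of 8 genes and brown adipocyte markers for 6 of 6, the brown markers with sums of 1889 to 4202 CPM in Beclin1_KO and 11016 to 15242 CPM in WT. The 8 adipocyte markers summed to 5757 to 9492 CPM in Beclin1_KO and 17509 to 20037 CPM in WT, so the markers that define the labelled tissue were present in every library. Endothelial markers summed to 633 to 814 CPM in Beclin1_KO and 1207 to 1400 CPM in WT, with 5 of 7 lower and 1 higher. Lymphocyte markers rose for 5 of 7 genes and fell for 1, at 29.9 to 46.2 CPM in Beclin1_KO against 4.49 to 7.45 CPM in WT, and 1 of them, Ncr1, was at 0 in 1 WT library. Mural markers fell for 2 of 6 genes and rose for 0, with sums of 726 to 1556 CPM in Beclin1_KO and 1143 to 1567 CPM in WT. In these sums, Des had 1050, 269 and 89.9 CPM in Beclin1_KO and 114, 579 and 146 CPM in WT. Within each genotype the libraries ranked for Des in the same order as for the muscle marker sums given below. The overlap of the mural sums came from Des. With Des left out, the mural sum of every Beclin1_KO library lay below that of every WT library. Of the mural markers other than Des, Rgs5 and Cspg4 fell, and Acta2, Myh11 and Notch3 did not pass. Schwann cell markers passed for 0 of 5 genes, with sums of 85.6 to 150.5 CPM in Beclin1_KO and 94.8 to 146 CPM in WT. No marker was at 0 in all 6 libraries. Skeletal muscle markers passed for 0 of 10 genes but spread widely, with sums of 37409, 8748 and 1480 CPM in Beclin1_KO and 665, 19739 and 1347 CPM in WT. In bulk tissue, fewer cells of a type and less RNA per cell cannot be told apart. The part these shifts have in any result below was not tested.

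**Figure D1:**
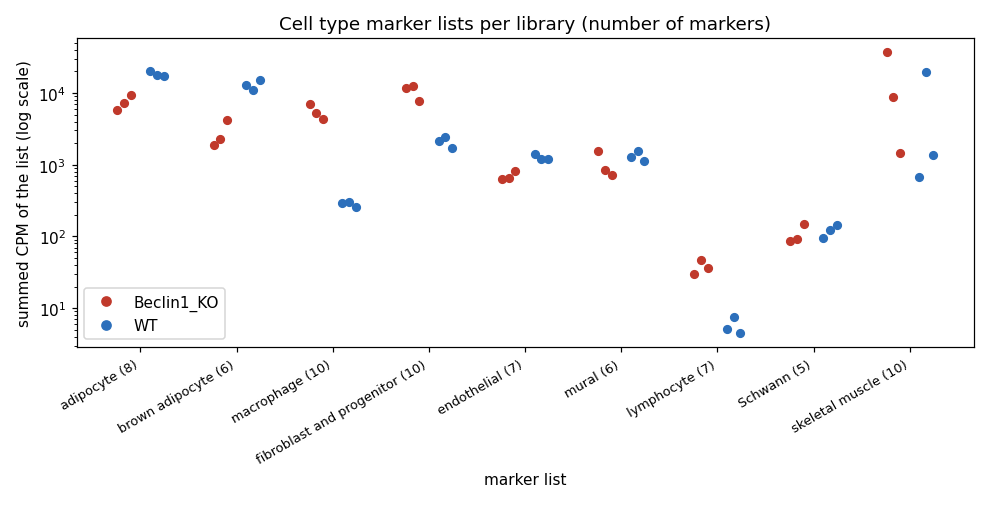
Summed CPM of each marker list (log axis) in the 3 Beclin1_KO libraries (red) and the 3 WT libraries (blue), with the number of markers in brackets. Macrophage, fibroblast and lymphocyte lists lie higher in Beclin1_KO, adipocyte, brown adipocyte and endothelial lists lie lower, and the muscle list spans 25.3-fold within Beclin1_KO and 29.7-fold within WT.

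Of the 46 members, 43 passed the filter on low counts. Among these, 13 rose, 6 fell and 24 did not pass. The 19 that changed are 44.2% of those tested, against 46.6% of all genes, a share near the background. Rises made up 30.2% of tested members, against 24.8% of all genes, and falls 14.0%, against 21.8%. Values of the genotypes did not overlap for 26 of 43 members (60.5%), against 59.7% of all genes tested. The median log2 fold change of the tested members was 0.40, against 0.05 for all genes. By role, 10 of 14 tested ligands changed, 3 of 12 receptors, 2 of 8 SMADs, 3 of 5 secreted antagonists and follistatin family genes, and 1 of 4 ID genes. Among the 19, 12 of the rises and 6 of the falls reached 2-fold. On the FPKM scale 18 of 35 members tested rose and 6 fell, against 39.3% and 13.6% of all genes. Without the library of each genotype that was highest in muscle markers, 10 members rose and 5 fell.

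**Figure D2:**
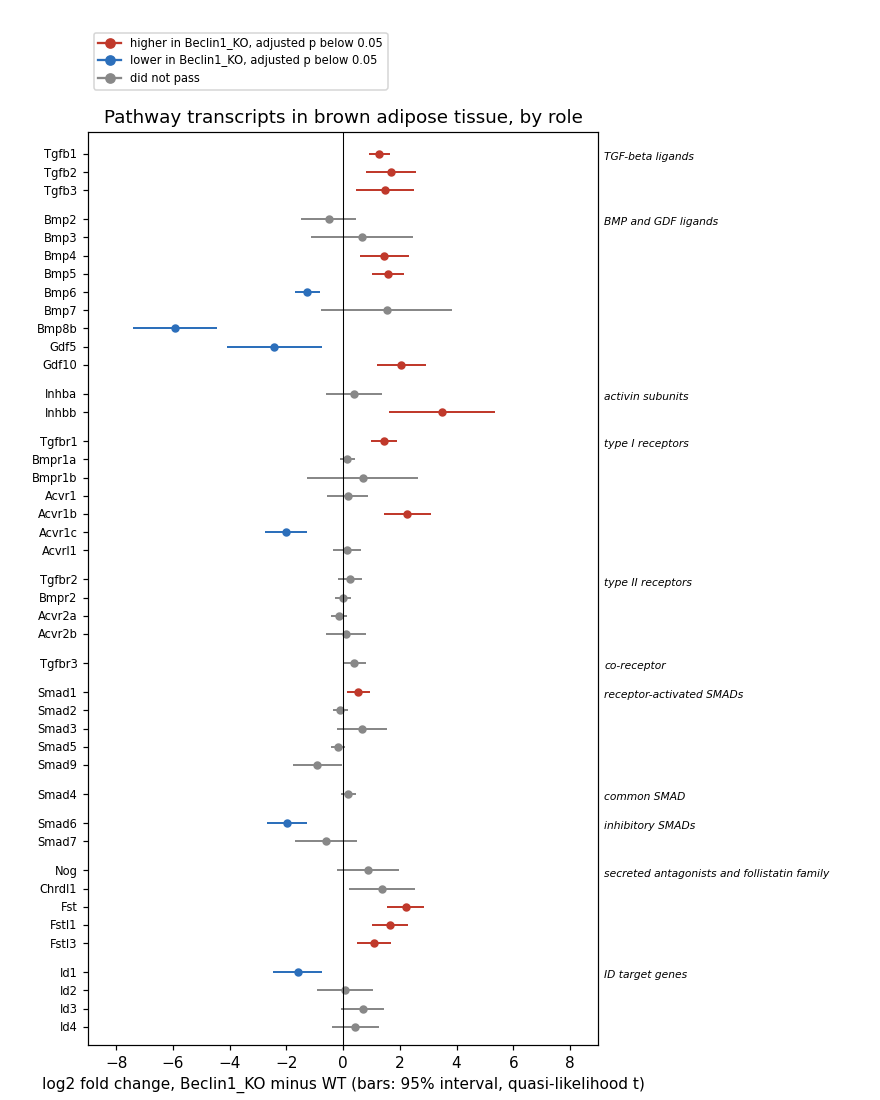
Log2 fold change of the 43 tested members, Beclin1_KO minus WT, with 95% intervals, grouped by role. The BMP and GDF ligands lie on both sides of 0, the follistatin family genes lie above it, and the type II receptors lie between -0.16 and 0.24.

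**Figure D3:**
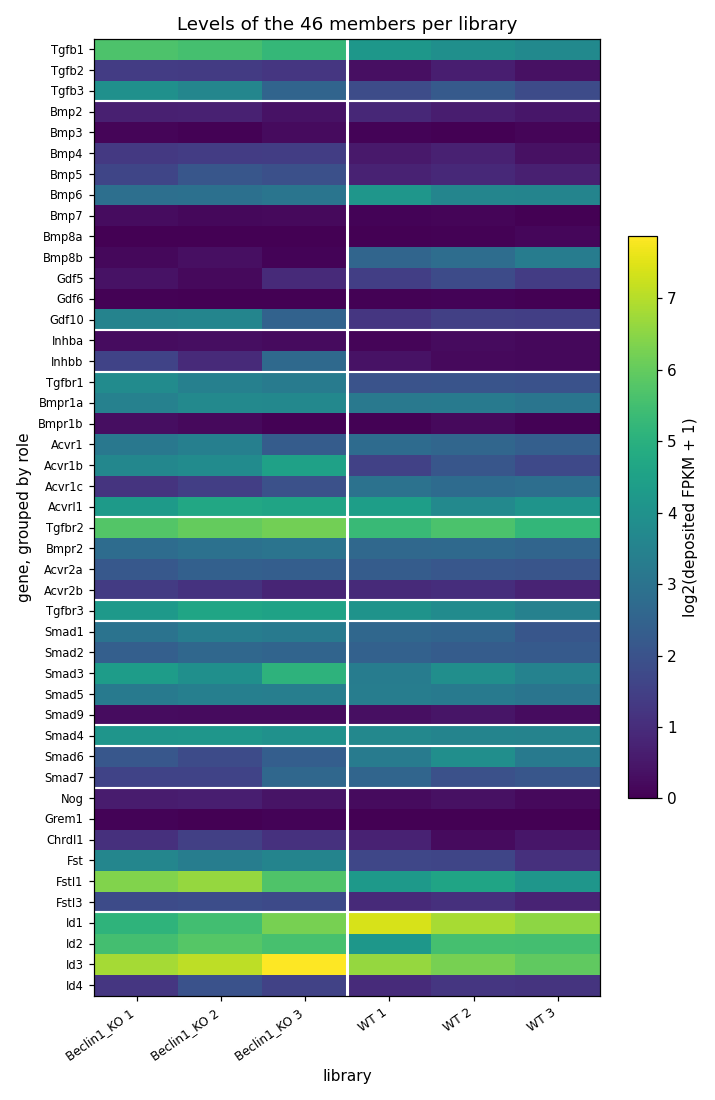
Level of all 46 members in each library as log2(FPKM + 1), grouped by role, with the Beclin1_KO libraries left of the WT libraries. By genotype mean, Id1, Id2, Id3, Fstl1 and Tgfbr2 are the brightest in both genotypes, with Tgfb1 next in Beclin1_KO. Bmp8b, Acvr1c and Smad6 are darker in every Beclin1_KO library than in every WT library.

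All 3 TGF-beta ligand genes rose. Tgfb1, the most abundant of them, encodes the ligand best known for matrix production and immune restraint and lies at chr7:25687002-25705077 (GRCm38). Tgfb1 had 101, 86.0 and 74.3 CPM in Beclin1_KO, against 39.8, 34.9 and 33.2 CPM in WT. Every knockout library lay above every WT library, and Tgfb1 rose 2.42-fold (log2 fold change 1.27, SE 0.14, adjusted p = 0.000637). Tgfb2, whose product needs the co-receptor betaglycan for efficient receptor binding, had 7.84, 6.85 and 6.37 CPM in Beclin1_KO and 1.43, 3.37 and 1.73 CPM in WT. The knockout libraries were close together and the WT libraries varied more, without overlap. The log2 fold change of Tgfb2 was 1.69 (SE 0.35, adjusted p = 0.00794).

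Tgfb3 had 45.8, 32.7 and 15.1 CPM in Beclin1_KO and 9.33, 14.1 and 10.4 CPM in WT. Knockout library 3 lay just above the highest WT library. Tgfb3 rose by a log2 fold change of 1.46 (SE 0.41, adjusted p = 0.0267), and the call was lost without knockout library 1 or 2 or WT library 1 or 3, with adjusted p of 0.0594 to 0.0956. In FPKM, Tgfb1 made up 75.5%, 78.2% and 85.7% of the summed TGF-beta ligand transcripts in Beclin1_KO, against 85.8%, 76.9% and 81.7% in WT. The share overlapped between genotypes. Shares and ratios of this kind were chosen after their values were seen and carry no test.

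The BMP and GDF ligands split, with 3 higher, 3 lower and 3 not passing among the 9 tested. Bmp4, a BMP known for committing progenitor cells to the fat lineage, had 2.85, 2.85 and 3.17 CPM in Beclin1_KO against 1.01, 1.54 and 0.689 CPM in WT. It was low in all 6 libraries, did not overlap, and rose by a log2 fold change of 1.45 (SE 0.35, adjusted p = 0.0138). Bmp5 had 7.55, 10.9 and 9.87 CPM in Beclin1_KO and 2.85, 3.77 and 2.87 CPM in WT. Each knockout library was well above each WT library (log2 fold change 1.58, SE 0.22, adjusted p = 0.00161). An annotated transcript on the opposite strand covers 46.7% of the exonic bases of Bmp5, and no source used here says whether counting used the strand.

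Gdf10, also called BMP3B, is a divergent member of the family that in mouse fat is known for restraining adipogenesis. Its values were 37.0, 35.1 and 15.8 CPM in Beclin1_KO, against 5.53, 7.63 and 7.98 CPM in WT. Knockout library 3 was the lowest of its group and still above the WT libraries. Gdf10 rose 4.15-fold (log2 fold change 2.05, SE 0.35, adjusted p = 0.00371).

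Bmp8b was the member with the largest fold change. It encodes a BMP made by brown adipocytes that in mice raises the response of brown fat to noradrenaline, and it lies at chr4:123104308-123126094. Its counts were 18, 41 and 10 in Beclin1_KO, against 662, 908 and 1357 in WT, or 0.327, 0.639 and 0.147 CPM against 16.0, 20.3 and 32.2 CPM. The knockout libraries were near the limit of detection, and the lowest WT library was far above all of them. Bmp8b fell by 5.94 on the log2 scale (SE 0.60, adjusted p = 0.000574), a 61.2-fold lower level. Without knockout library 2 the log2 fold change was -6.60.

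The paralog Bmp8a, on the same chromosome, had 0, 0 and 3 counts in Beclin1_KO and 3, 5 and 13 counts in WT and was too low to test. The coding sequences of Bmp8a and Bmp8b are identical at 88% of 1197 aligned bases, so some reads may have been assigned to the wrong paralog, and their counts are uncertain to that extent. The 250 bases before the RefSeq transcript start of each (GRCm38.p6) are printed 5′ to 3′ on the gene's own strand, because one paralog was expressed in WT and the other barely in either genotype. Capitals mark CAGACA, an element bound by SMAD3 and SMAD4, searched on both strands. Bmp8b lies on the plus strand at chr4:123104911-123105160 and Bmp8a on the minus strand at chr4:123343253-123343502.
Bmp8b: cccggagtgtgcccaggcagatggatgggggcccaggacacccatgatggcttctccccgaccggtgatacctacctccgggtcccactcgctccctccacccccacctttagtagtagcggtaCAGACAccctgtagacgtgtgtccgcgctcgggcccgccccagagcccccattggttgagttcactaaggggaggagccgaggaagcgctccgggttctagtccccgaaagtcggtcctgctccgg
Bmp8a: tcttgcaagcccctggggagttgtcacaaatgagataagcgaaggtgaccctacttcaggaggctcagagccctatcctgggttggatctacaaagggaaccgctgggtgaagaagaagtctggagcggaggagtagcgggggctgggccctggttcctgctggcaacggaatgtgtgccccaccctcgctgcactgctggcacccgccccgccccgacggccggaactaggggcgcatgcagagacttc
The gene span given for Bmp8b starts further upstream than the transcript start used, so its window lies inside that span. The Bmp8b window holds 1 match, 126 bases before the transcript start, and the Bmp8a window holds none. Of 32851 promoter windows of this length in the RefSeq table, 17.1% hold this motif, and 6 of 37 windows of the members do. A match is a run of letters and not evidence of binding.

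Bmp6, known as the ligand that tells liver cells about iron stores, had 17.7, 16.5 and 20.04 CPM in Beclin1_KO against 54.0, 37.2 and 39.2 CPM in WT. The genotypes were clearly apart, and Bmp6 fell by 1.26 on the log2 scale (SE 0.17, adjusted p = 0.00145). Gdf5, best known from joint formation, had 0.653, 0.281 and 1.99 CPM in Beclin1_KO and 4.42, 6.63 and 4.73 CPM in WT. Knockout library 3 was the highest of its group. The log2 fold change was -2.42 (SE 0.69, adjusted p = 0.0266), and -3.49 without knockout library 3. The Gdf5 call was lost without knockout library 1 or any 1 of the 3 WT libraries, with adjusted p of 0.0510 to 0.0811. A gene on the opposite strand covers 40.3% of its exonic bases.

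Of the BMP ligands that did not pass, Bmp2 had a log2 fold change of -0.52 (adjusted p = 0.313), Bmp3 of 0.66 (adjusted p = 0.506) and Bmp7 of 1.53 (adjusted p = 0.230). All 3 stayed at or below 3.24 CPM in every library, and Bmp7 was at 0 in WT library 3. The Bmp7 interval ran from -0.73 to 3.79 and spans both a fall and a large rise. Gdf6 had 6, 0 and 2 counts in Beclin1_KO and 6, 11 and 0 counts in WT and was not tested.

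The genes that made up the BMP and GDF ligand transcripts differed between genotypes, as shares of the summed FPKM of the 11 genes within each library. Bmp8b supplied 0.528%, 1.06% and 0.302% of this sum in Beclin1_KO, against 18.6%, 25.7% and 36.5% in WT. Gdf10 supplied 48.5%, 46.5% and 25.5% in Beclin1_KO, against 5.07%, 7.61% and 7.11% in WT. Bmp8b and Gdf10 shares moved to opposite sides, without overlap. Bmp6 was a large component of both, with 29.0%, 27.4% and 40.5% in Beclin1_KO and 61.9%, 46.4% and 43.7% in WT.

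Of the activin subunit genes, Inhbb rose and Inhba did not pass. Inhbb encodes the beta B subunit of activin B and of inhibin B and lies at chr1:119415463-119422248. It had 7.86, 3.37 and 21.4 CPM in Beclin1_KO, against 1.45, 0.781 and 0.665 CPM in WT. The knockout libraries differed widely among themselves, with library 3 the highest, and all lay above WT. Inhbb rose 11.3-fold, a log2 fold change of 3.49 (SE 0.75, adjusted p = 0.0107), which was 2.54 without knockout library 3 (adjusted p = 0.00928). Without the library of each genotype highest in muscle markers, the adjusted p was 0.0501 at a log2 fold change of 3.55, and with limma-voom it was 0.0936 at 3.19. Inhba, which encodes the beta A subunit, stayed between 0.531 and 1.29 CPM in all libraries, with a log2 fold change of 0.37 (adjusted p = 0.488).

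Of the 12 receptor genes, 2 rose, 1 fell and 9 did not pass. The 3 that changed were all type I kinases of the SMAD2 and SMAD3 branch. Tgfbr1 (ALK5), the type I receptor for TGF-beta, had 69.3, 48.2 and 45.9 CPM in Beclin1_KO and 19.0, 20.4 and 20.7 CPM in WT. The WT libraries were tightly grouped below all knockout libraries (log2 fold change 1.44, SE 0.17, adjusted p = 0.000916). Its partner Tgfbr2, the type II receptor that binds TGF-beta first, had 237, 257 and 312 CPM in Beclin1_KO against 204, 267 and 211 CPM in WT. These values overlapped, and the log2 fold change of 0.24 (interval -0.15 to 0.63) did not pass, with an adjusted p of 0.278.

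Acvr1b and Acvr1c, which encode ALK4 and ALK7, moved in opposite directions. Both kinases transmit activin-type signals, and ALK7 is the one known for its high expression in adipocytes. Acvr1b had 34.9, 36.4 and 65.0 CPM in Beclin1_KO against 6.72, 12.3 and 9.31 CPM in WT. All knockout libraries were above all WT libraries, with a log2 fold change of 2.27 (SE 0.33, adjusted p = 0.00208). Acvr1c, at chr2:58267453-58357896, had 10.8, 13.7 and 23.8 CPM in Beclin1_KO against 67.2, 59.0 and 68.4 CPM in WT. Its highest knockout library lay far below its lowest WT library, and it fell by 2.01 on the log2 scale (SE 0.29, adjusted p = 0.00208). On the FPKM scale, Acvr1c took 10.1%, 12.1% and 11.8% of the sum of both genes in Beclin1_KO, against 78.4%, 63.6% and 72.8% in WT.

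The windows before the RefSeq transcript starts of this pair are shown because the paralogs diverged. Acvr1b lies on the plus strand, with the window at chr15:101173822-101174071, and Acvr1c on the minus strand, with the window at chr2:58357759-58358008 (GRCm38.p6, 250 bases each). The Acvr1c window partly overlaps the gene span given above, which reaches past the transcript start used.
Acvr1b: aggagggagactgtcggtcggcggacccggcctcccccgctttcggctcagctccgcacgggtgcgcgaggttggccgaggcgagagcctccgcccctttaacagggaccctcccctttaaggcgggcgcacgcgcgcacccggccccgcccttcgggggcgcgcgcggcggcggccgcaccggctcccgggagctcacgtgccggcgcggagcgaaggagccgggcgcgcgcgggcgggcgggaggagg
Acvr1c: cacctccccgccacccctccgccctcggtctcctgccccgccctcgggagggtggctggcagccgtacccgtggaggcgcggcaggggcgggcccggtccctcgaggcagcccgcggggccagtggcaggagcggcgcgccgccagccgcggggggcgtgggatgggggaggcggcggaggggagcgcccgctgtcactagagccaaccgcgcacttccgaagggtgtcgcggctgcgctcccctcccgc
No capitals appear, since neither window holds CAGACA, the GC-rich SMAD element GGCGCC or the SMAD palindrome GTCTAGAC on either strand. Of all 32851 windows, 9.59% hold GGCGCC and 0.167% hold GTCTAGAC, and among the 37 windows of members the counts were 8 and 0. Windows were found for 31 of the 46 members.

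**Figure D4:**
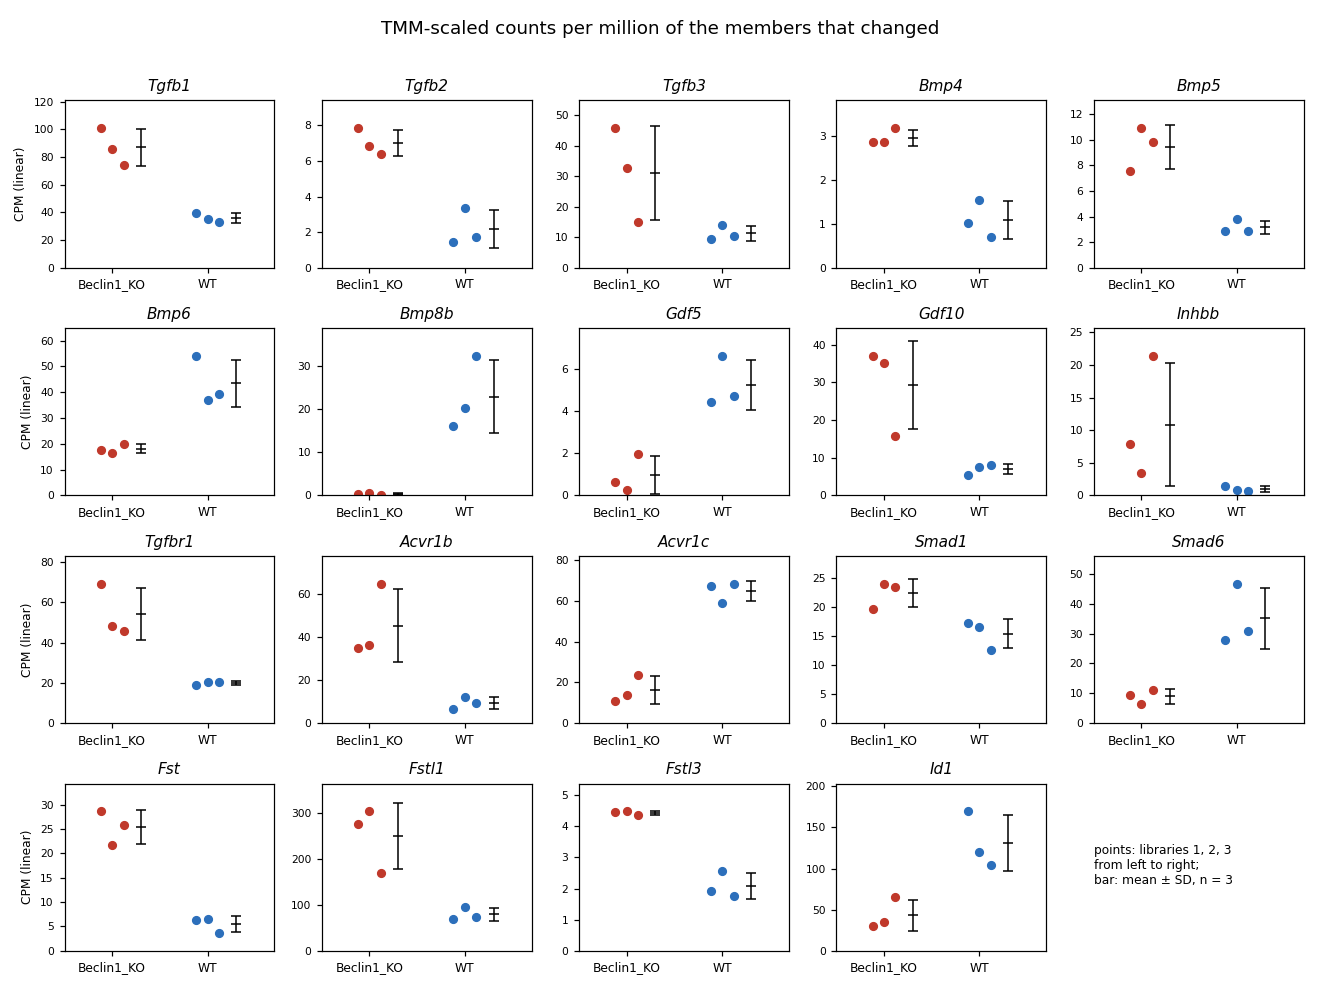
CPM per library (linear axis, from 0) for the 19 members that changed, with Beclin1_KO (red) left of WT (blue) and bars for the mean ± SD (n = 3). The genotypes do not overlap in any panel, and Acvr1b and Acvr1c lie on opposite sides.

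The receptors that bind BMPs did not pass. Among type I receptors, the log2 fold changes were 0.15 for Bmpr1a (adjusted p = 0.254), 0.68 for Bmpr1b (adjusted p = 0.527), 0.17 for Acvr1 (adjusted p = 0.667) and 0.13 for Acvrl1 (adjusted p = 0.606). Bmpr1b was at or below 1.11 CPM in all libraries. Acvrl1, the endothelial receptor ALK1, had 63.1, 78.3 and 77.1 CPM in Beclin1_KO and 80.3, 49.5 and 69.7 CPM in WT, in full overlap, beside lower endothelial markers. Among type II receptors, Bmpr2 had 61.5, 63.8 and 73.2 CPM in Beclin1_KO and 63.7, 68.4 and 67.1 CPM in WT. Its log2 fold change lay between -0.25 and 0.24 by the 95% interval. Acvr2a had a log2 fold change of -0.16 (adjusted p = 0.250) and Acvr2b of 0.09 (adjusted p = 0.804). Without knockout library 3, Acvr1 passed as higher (log2 fold change 0.44, adjusted p = 0.0290). The signs of Bmpr2, Acvr2a, Acvr2b, Acvr1 and Acvrl1 were not the same in all alternative fits.

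Tgfbr3, the co-receptor betaglycan that presents TGF-beta2 and inhibin, had 104, 124 and 125 CPM in Beclin1_KO against 103, 90.4 and 74.9 CPM in WT. The lowest knockout library barely cleared the highest WT library, and the log2 fold change of 0.40 missed the threshold (adjusted p = 0.0663). Tgfbr1, whose product joins the type II receptor, was at 0.241, 0.155 and 0.121 of the FPKM of Tgfbr2 in Beclin1_KO, against 0.0763, 0.0631 and 0.0805 in WT. Tgfbr2 was the most abundant receptor in FPKM in both genotypes, at 62.8 ± 9.14 in Beclin1_KO and 41.7 ± 6.77 in WT (SD, n = 3 each). The next in order were Acvrl1, with 22.4 ± 3.38 FPKM in Beclin1_KO and 16.0 ± 4.17 FPKM in WT, and Tgfbr3, with 21.5 ± 2.88 FPKM in Beclin1_KO and 12.8 ± 2.74 FPKM in WT, which lay within their spread of each other.

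Among SMAD genes, 1 rose, 1 fell and 6 did not pass. Smad6, an inhibitory SMAD that mainly dampens BMP signals and is itself induced by them, lies at chr9:63953076-64022085. It had 9.38, 6.32 and 11.2 CPM in Beclin1_KO, against 27.9, 46.7 and 30.8 CPM in WT. The genotypes were widely apart, and Smad6 fell by 1.97 on the log2 scale (SE 0.28, adjusted p = 0.00182). Smad7, the other inhibitory SMAD, had 8.19, 7.69 and 21.3 CPM in Beclin1_KO and 23.6, 14.6 and 18.3 CPM in WT. Knockout library 3 lay within the WT range and the other two below it. The log2 fold change of Smad7 was -0.61 (adjusted p = 0.299), and -1.25 (adjusted p = 0.00651) without knockout library 3.

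Smad1, a receptor-activated SMAD of the BMP branch, had 19.7, 24.1 and 23.5 CPM in Beclin1_KO and 17.2, 16.5 and 12.5 CPM in WT. The difference was small and without overlap, a log2 fold change of 0.54 (SE 0.16, adjusted p = 0.0303). The call was lost without knockout library 2 or 3 or any 1 WT library, with adjusted p of 0.0501 to 0.0977. Smad5, of the same branch, had a log2 fold change of -0.20 (adjusted p = 0.114). Smad9, also of that branch, was at or below 2.23 CPM in every library (log2 fold change -0.91, adjusted p = 0.0674).

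Smad2 and Smad3, the SMADs of the TGF-beta and activin branch, did not pass. Smad3 had 91.9, 61.3 and 154 CPM in Beclin1_KO against 49.9, 80.5 and 64.0 CPM in WT. The knockout libraries spread widely and overlapped WT, with a log2 fold change of 0.66 (adjusted p = 0.175). Smad2 had a log2 fold change of -0.10 (interval -0.33 to 0.12), and Smad4, the shared partner, of 0.18 (interval -0.03 to 0.40). By mean FPKM, Smad3 was the most abundant SMAD gene in both genotypes, with 22.1 ± 9.78 in Beclin1_KO and 11.0 ± 2.54 in WT. Smad4 stood at 15.9 ± 1.03 in Beclin1_KO and at 11.0 ± 0.632 in WT, and Smad6 at 10.3 ± 3.04 in WT. The levels of Smad3 and Smad4 did not differ beyond their spread in either genotype, and in WT neither did that of Smad6.

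All 3 follistatin family genes rose. Fst encodes follistatin, which binds activins and some BMPs and keeps them from their receptors, and lies at chr13:114452262-114458989. It had 28.6, 21.7 and 25.7 CPM in Beclin1_KO, against 6.38, 6.54 and 3.61 CPM in WT. The knockout libraries were close together and far above WT (4.59-fold, log2 interval 1.59 to 2.81, adjusted p = 0.00078). Fstl1, a secreted glycoprotein of the family made by mesenchymal cells, had 276, 303 and 168 CPM in Beclin1_KO and 69.6, 95.3 and 73.5 CPM in WT. Library 3 was the lowest knockout and still above WT, and Fstl1 rose by a log2 fold change of 1.65 (SE 0.25, adjusted p = 0.00221).

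Fstl3, which like follistatin blocks activin and myostatin, had 4.46, 4.48 and 4.37 CPM in Beclin1_KO against 1.93, 2.57 and 1.76 CPM in WT. The knockout libraries were nearly identical (log2 fold change 1.09, SE 0.23, adjusted p = 0.00867). A gene on the opposite strand covers 47.3% of its exonic bases. In FPKM, Fst exceeded Inhbb in every library, by a ratio of 5.65, 9.92 and 1.95 in Beclin1_KO and of 7.15, 13.4 and 8.74 in WT, in overlap. Inhibitor and activin subunit were both higher in Beclin1_KO, while their ratio overlapped.

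The BMP antagonists did not pass. Chrdl1, a chordin-like BMP antagonist, had 4.41, 6.57 and 4.42 CPM in Beclin1_KO against 3.16, 0.848 and 1.99 CPM in WT. The groups did not overlap, and the log2 fold change of 1.36 missed the threshold (adjusted p = 0.0529). Chrdl1 passed in 7 of 19 alternative fits, among them DESeq2 (adjusted p = 0.0125), limma-voom (adjusted p = 0.0274) and the fit without WT library 1 (log2 fold change 1.82, adjusted p = 0.0280). Nog, which encodes noggin, was below 1 CPM in every library, with a log2 fold change of 0.89 (adjusted p = 0.145). Grem1, which encodes gremlin 1, had 4, 0 and 6 counts in Beclin1_KO and 0 in all 3 WT libraries, too few to test.

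Of the ID genes, which encode helix-loop-helix proteins that block differentiation factors, Id1 fell and the other 3 did not pass. Id1, at chr2:152736251-152737410, had 29.6, 35.2 and 65.1 CPM in Beclin1_KO, against 169, 120.3 and 104 CPM in WT. No knockout library reached the lowest WT library, and Id1 fell by 1.60 on the log2 scale (SE 0.34, adjusted p = 0.00975). Id3 had 98.7, 110.2 and 204 CPM in Beclin1_KO and 103, 81.8 and 70.8 CPM in WT. Knockout library 3 was high, library 2 lay just above WT and library 1 within the WT range, and the log2 fold change of 0.69 did not pass (adjusted p = 0.103).

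The ratio of Id1 to Id3 in FPKM was nearly constant within each genotype, at 0.306, 0.325 and 0.326 in Beclin1_KO and at 1.69, 1.501 and 1.505 in WT. Knockout library 3 was the highest of its group for both genes, while its ratio was close to that of the others. Id2 had 53.1, 59.4 and 54.7 CPM in Beclin1_KO and 23.5, 66.3 and 69.5 CPM in WT. WT library 1 stood well below the others, and the log2 fold change was 0.07 (adjusted p = 0.897). Id4 was low, at or below 4.21 CPM in every library, with a log2 fold change of 0.43 (adjusted p = 0.325). In FPKM, Id3 was the most abundant member in Beclin1_KO at 159.6 ± 64.8, and Id1 in WT at 123 ± 38.7.

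**Figure D5:**
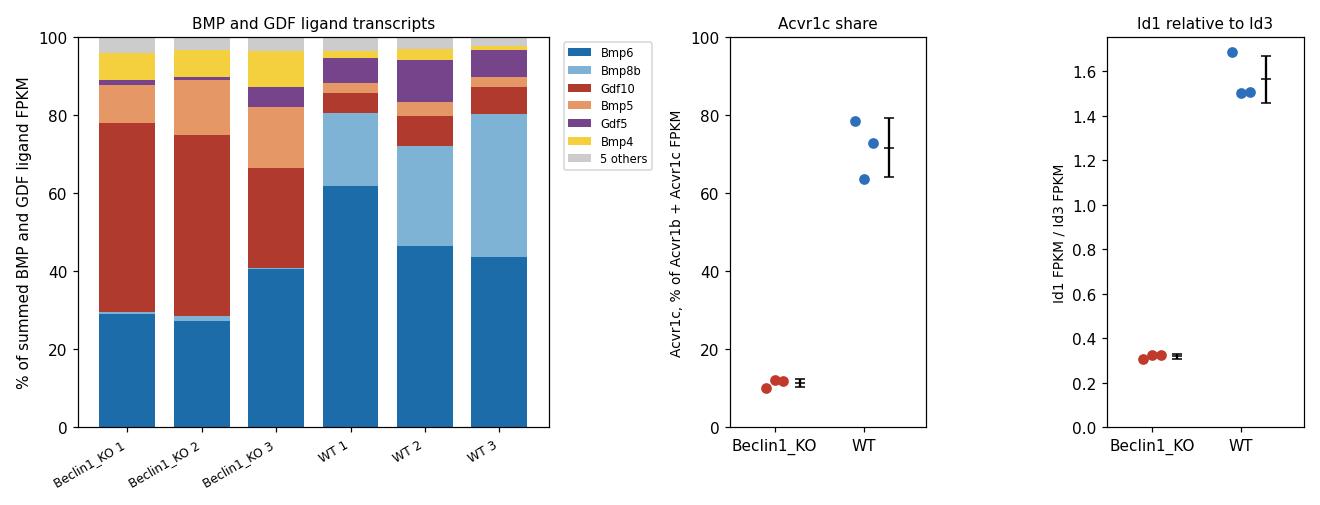
Left, share of the summed BMP and GDF ligand FPKM taken by each gene in each library, with the Beclin1_KO libraries left of the WT libraries; middle, Acvr1c as a percentage of Acvr1b plus Acvr1c FPKM; right, the ratio of Id1 to Id3 FPKM (points, libraries; bars, mean ± SD, n = 3). Gdf10 and Bmp6 make up most of each Beclin1_KO bar and Bmp6 and Bmp8b most of each WT bar, and the points of Acvr1c and of Id1 lie lower in Beclin1_KO without overlap.

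Within the genotypes, knockout library 3 was the highest of its group for 18 of 43 tested members (41.9%), against 38.4% of all genes. WT library 2 was the highest of its group for 21 members (48.8%), against 31.8% of all genes, and WT library 3 for 7 (16.3%), against 31.4%. WT library 2 was also the WT library with the highest muscle marker sum. Knockout library 1 had the highest muscle marker sum of all libraries. It was the highest of its group for 12 members (27.9%), against 33.8% of all genes. A link of these counts with muscle was not tested. Of the members that changed, knockout library 3 was the highest of its group for Bmp4, Bmp6, Gdf5, Inhbb, Acvr1b, Acvr1c, Smad6 and Id1. It was the lowest for Tgfb1, Tgfb2, Tgfb3, Bmp8b, Gdf10, Tgfbr1, Fstl1 and Fstl3. No share over all genes was taken for the lowest library. Knockout library 3 also had the highest adipocyte and brown adipocyte marker sums of the knockouts and the lowest macrophage and fibroblast sums. A link of these lists with the marker sums was not tested.

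A wider set of 81 pathway genes, listed by role, gives the surroundings of the members. Of these, 75 were in the table and 67 were tested, and 25 rose, 10 fell and 32 did not pass. The share that changed was 52.2%, with 37.3% higher and 14.9% lower, against 46.6%, 24.8% and 21.8% of all genes. The median log2 fold change was 0.41, against 0.05 for all genes. Among genes of latency and matrix binding, 7 of 12 rose and 3 fell. Among genes listed as other ligands, 5 of 10 rose, but this count includes Bmp1, which encodes a protease and not a ligand. Among other antagonists 5 of 11 rose and 1 fell, and among intracellular regulators 2 of 17 rose and 4 fell. Among target genes 5 of 10 rose and 2 fell, and among other receptors 1 of 7 rose. Col1a1 and Dcn of this set are also fibroblast markers.

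The strongest rises by p included Bgn, which encodes the TGF-beta-binding matrix proteoglycan biglycan, with 728, 610.1 and 546 CPM in Beclin1_KO against 96.3, 115 and 98.7 CPM in WT (log2 fold change 2.61, adjusted p = 9.7e-05). Nrros, which holds latent TGF-beta on macrophages and microglia, had 72.4, 63.8 and 47.3 CPM in Beclin1_KO against 11.3, 13.8 and 11.4 CPM in WT (log2 fold change 2.33, adjusted p = 0.000206). Tgif1, which encodes a corepressor of SMAD2 and SMAD3, had 28.1, 27.6 and 33.6 CPM in Beclin1_KO and 5.27, 5.18 and 3.63 CPM in WT (log2 fold change 2.66, adjusted p = 0.00013). For these 3 genes the groups were far apart and each was tight. Bmper, a secreted BMP-binding regulator, rose 8.67-fold (adjusted p = 0.000165). Tgfbi, a matrix protein named for its induction by TGF-beta, rose 5.58-fold (adjusted p = 0.000348). Bmp1, which despite its name encodes a procollagen protease and not a family ligand, rose 4.12-fold (adjusted p = 0.000313).

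The strongest falls included a pair of latent TGF-beta binding proteins. Ltbp3 had 214, 195 and 211 CPM in Beclin1_KO against 324, 447 and 446 CPM in WT (log2 fold change -0.97, adjusted p = 0.00313). Ltbp2 had 57.0, 46.8 and 54.7 CPM in Beclin1_KO against 94.9, 181 and 168 CPM in WT (log2 fold change -1.49, adjusted p = 0.00329). Both were lower in every knockout library. The other genes of this family split, with Ltbp4 lower (log2 fold change -0.39, adjusted p = 0.0398) and Ltbp1 higher (log2 fold change 0.90, adjusted p = 0.0158). Dand5, a secreted antagonist of the DAN family, fell by 0.85 on the log2 scale (adjusted p = 0.00811). Ppm1a, a phosphatase that acts on receptor-activated SMADs, fell by 0.60 (adjusted p = 0.0110). Zfyve9, which presents SMAD2 and SMAD3 to the receptor, fell by 0.51 (adjusted p = 0.0115). Smtn, which encodes the smooth muscle protein smoothelin, fell by 0.66 (adjusted p = 0.0134). The calls of Ppm1a, Zfyve9 and Smtn were lost on the FPKM scale. Without the library of each genotype highest in muscle markers, those of Ppm1a (adjusted p = 0.0779) and Zfyve9 (adjusted p = 0.0549) were lost too.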

How the data were processed

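Trizol-extracted RNA went into TruSeq Stranded mRNA libraries, per the labels' protocols, for 3 Beclin1_KO and 3 WT samples that the design text calls biological replicates. The submitters' processing notes list build mm10 and, without roles, HISAT2 2.1.0, StringTie 1.3.4d, Trimmomatic, DESeq2 and bcl2fastq 2.20.0. How multiply mapped reads were treated, which annotation was used and whether counting was stranded is unstated there. Per the file headers, the authors deposited whole-number read counts per gene, used for all tests, and FPKM values, used for levels between genes and in alternatives. A further 6 deposited per-sample columns hold log2-like values of unstated transformation and were not used.

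The test was edgeR 4.0.16 (R 4.3.3): filterByExpr (15347 genes kept, 3160 removed), TMM scaling, a robust quasi-likelihood fit with genotype as its only term, and Benjamini-Hochberg adjustment over all genes tested. TMM factors were 1.09 to 1.19 in Beclin1_KO and 0.828 to 0.935 in WT. The SE was derived from the log2 fold change and its F statistic, and 95% intervals use the t distribution of the fit. The biological coefficient of variation was 33.2%. The fit was tried on simulated counts in which far fewer genes changed than here, so that trial does not test the scaling for these data. Alternatives, given in the closing section, used DESeq2 1.42.0 and limma 3.58.1.

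The members, the wider list and the marker lists were chosen with earlier results of these data known. Every member that passed is given with its library values. Of the wider list, up to 6 genes per direction with the smallest p were named, and a few more for comparison. Gene positions, and promoter windows with their sequences, are from RefSeq GRCm38.p6. The coding sequences of Bmp8a and Bmp8b were compared, and exons on opposite strands overlapped, in an annotation of the same build.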

Additional observations from a re-analysis of the deposited data

How the results depend on the processing

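Of the 19 members that changed, 15 passed in the same direction in each of 19 alternative fits, which were RLE, upper-quartile and reduced TMM scaling, other low-count filters, no robust dispersion, DESeq2, limma-voom, limma-trend on log2 FPKM with a pseudocount of 1 or 0.1, the replicate block, leaving out each library, and a pair of fits for muscle chosen after seeing the data. Tgfb3 and Smad1 passed in 12, Gdf5 in 14 and Inhbb in 15 of 17. No member changed sign between the reported fit and a fit where either passed; among values that did not pass, signs differed for Bmpr2, Acvr2a, Acvr2b, Acvr1, Acvrl1, Smad2, Smad5 and Id2. With one library left out, 11 to 13 members were higher and 5 to 7 lower, against 13 and 6, among 2983 to 3790 genes higher and 2492 to 3439 lower. DESeq2 called 16 higher and 6 lower, and the FPKM fits 18 or 19 higher and 6 lower of 35 tested. Genes lower numbered 3340 in all, against 1700 and 1699 in the FPKM fits with pseudocounts of 1 and 0.1, and 2054 without the library of each genotype highest in muscle markers. Lower genes of the wider pathway list numbered 10, against 4, 4 and 5 in those fits, and the cause was not tested. The last fit called 10 members higher and 5 lower, and kept 15 of the 19, losing Tgfb3, Gdf5, Inhbb and Smad1. The muscle level as a covariate gave 15 higher and 7 lower. Some members passed only in alternatives: Bmpr1a, Tgfbr2 and Smad4 in the FPKM fits, Smad3 in the FPKM fit with a pseudocount of 0.1, Tgfbr3 in DESeq2 and the FPKM fits, Id3 in these and with the muscle covariate, Smad9 with that covariate, and Smad7 and Acvr1 without knockout library 3. Chrdl1 passed in 7 of 19.

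Replicate numbers showed no steady pairing of the libraries, by a check that cannot exclude it. Deviations of same-numbered libraries correlated at -0.40, 0.02 and 0.40 across genes, and knockout libraries 1 and 2 correlated better with a WT library of another number. The highest correlation, 0.57, joined knockout library 1 and WT library 2, which were highest in muscle markers in their genotypes. Deviations that follow muscle content could hide a pairing. The replicate block called 11 members higher and 6 lower, among 3371 genes higher and 3032 lower, with a log2 fold change of 1.34 for Tgfb3 (adjusted p = 0.0574) and of 0.55 for Smad1 (adjusted p = 0.0612).

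Low counts limit Bmp3, Bmp7, Bmpr1b, Smad9 and Nog, and whether sex or age differed between the genotypes is unstated in the labels.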
